A study of Mus musculus with 12 samples.

Results

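The genes described here are those whose counts were lower after 4 h of stimulation with IgE and antigen than in resting cells, in both genotypes of the study. Expression was counted in mast cells derived from mouse bone marrow, with a NanoString nCounter panel for myeloid genes in which a barcoded probe for each mRNA is hybridized to RNA and single barcodes are counted. The genes were chosen by these same values: a probe for an endogenous mRNA needed at least 20 counts in at least 3 libraries and a difference equal to a fall of 1.5-fold or more in each genotype. Probes were left out where the name began with letters used for cytokines, chemokines, TNF family genes, integrins, Fc and pattern recognition receptors and their adaptors, CD antigens (Cd, which also takes in genes such as Cdc20), NF-κB, interferon, JAK, STAT or GATA genes, and so were Kit, Birc5, Ccnb2 and 2810417H13Rik. The rule kept 63 genes of 545 that passed the count filter, out of 734 endogenous probes on the panel. Before names were left out, 85 genes passed both falls, and 22 of them were removed. Since the fall chose the genes, it is described below without a test.

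All 12 libraries came from primary cells of C57BL/6 mice that were 6 to 8 weeks old, grown with IL-3 for at least 4 weeks, edited with Cas9 and a zsGreen repair template, and sorted for zsGreen before activation. The template was inserted at Kit in the control cells, called c-Kit KO, and at Mettl3, the catalytic subunit of the RNA m6A methyltransferase, in the Mettl3 KO cells, with guides that cut exon 2 of Kit and exon 1 of Mettl3. Thus every group carried a cut, an insert and a sort, and no unedited cells were compared. Each genotype was left resting (US) or stimulated (IgE), with 3 libraries numbered 1 to 3 in each of the 4 groups. The endogenous counts of a library summed to between 504238 and 737910, while its 8 negative controls averaged 7.13 to 22.8. Values below are scaled counts, that is, counts divided by the library's geometric mean of 20 housekeeping probes relative to the average library, and differences are on the log2(scaled count + 1) scale, which understates the change of low genes. The housekeeping factor was higher in the stimulated than in the resting library of all 6 same-numbered pairs, with the largest ratio in libraries 1 of c-Kit KO cells, where it went from 0.730 to 0.944. Kit had scaled counts of 1856, 2856 and 2826 in resting c-Kit KO libraries and 4057, 2533 and 2456 in resting Mettl3 KO libraries. The position of its probe is not given in the sources used here, so these levels do not check the edit.

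Mast cells hold IgE on a surface receptor, FcεRI, whose α chain binds IgE and whose β chain, encoded by Ms4a2, amplifies the signal. Crosslinking by antigen triggers release of granules filled with proteases such as carboxypeptidase A3 (Cpa3), synthesis of leukotrienes and prostaglandins from arachidonic acid, and, over hours, transcription of cytokine genes. Mast cells grown with IL-3 also divide, and so express genes of DNA replication and mitosis.

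The promoters of 4 of these genes are shown because 3 of the genes are among the 10 mast cell markers examined, Ms4a2, Cpa3 and Hpgds (hematopoietic prostaglandin D synthase), and the fourth, Top2a (DNA topoisomerase II α), stands for the cell cycle genes. Each sequence is the 250 bases before the annotated start, 5′ to 3′ on the gene's strand, from RefSeq on GRCm38.p6, all 4 on the minus strand. Capitals mark matches on either strand to any of 12 motif forms searched. For GATA factors the letters were AGATAA or TGATAA. For cyclic AMP response elements they were TGACGTCA, for AP-1 sites TGAGTCA and for NF-κB sites GGGACTTTC. For RUNX factors the search used TGTGGT, for ETS factors it used CCGGAAGT and for E2F factors it used GCGGGAAA. General promoter elements were searched as CCAAT for the CCAAT box, GGGCGG for the GC box, TATAAA for the TATA box and CACGTG for the E-box. None of these motifs contains another, and matches may overlap.
Ms4a2, chr19:11623720-11623969: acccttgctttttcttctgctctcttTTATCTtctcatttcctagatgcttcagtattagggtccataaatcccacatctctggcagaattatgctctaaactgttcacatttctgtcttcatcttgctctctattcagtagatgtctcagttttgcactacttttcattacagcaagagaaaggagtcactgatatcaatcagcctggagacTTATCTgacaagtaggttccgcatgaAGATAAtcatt
Cpa3, chr3:20242182-20242431: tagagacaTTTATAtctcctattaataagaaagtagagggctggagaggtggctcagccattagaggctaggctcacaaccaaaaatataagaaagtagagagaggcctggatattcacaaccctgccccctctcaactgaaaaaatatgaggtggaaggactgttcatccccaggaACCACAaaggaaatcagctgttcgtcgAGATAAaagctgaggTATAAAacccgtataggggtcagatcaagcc
Hpgds, chr6:65144731-65144980: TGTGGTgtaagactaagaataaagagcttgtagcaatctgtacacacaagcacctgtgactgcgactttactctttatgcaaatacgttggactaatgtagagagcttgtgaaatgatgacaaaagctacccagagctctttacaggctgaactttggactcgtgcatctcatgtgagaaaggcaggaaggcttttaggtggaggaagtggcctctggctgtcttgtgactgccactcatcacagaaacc
Top2a, chr11:99024190-99024439: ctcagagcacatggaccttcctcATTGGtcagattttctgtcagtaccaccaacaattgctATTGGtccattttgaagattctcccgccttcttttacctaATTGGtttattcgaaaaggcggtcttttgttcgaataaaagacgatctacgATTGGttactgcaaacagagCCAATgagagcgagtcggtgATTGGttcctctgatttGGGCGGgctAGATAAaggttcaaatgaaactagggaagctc
In these windows, Ms4a2 held 3 matches to AGATAA or its reverse complement, the nearest beginning 11 bases before the start. Cpa3 held 1 such match, which began 46 bases before the start, beside a TATAAA that began 31 bases before it. Hpgds held neither GATA motif. Top2a held 6 matches to CCAAT on either strand, a GC box and an AGATAA. Sequences were found for 48 of the 63 genes. GGGCGG was present upstream of 31 of the 48 (64.6%), against 35.4% of the 27025 genes in the table. CCAAT was present in 23 of 48 (47.9%, against 37.5%). A GATA motif of either form was found in 7 of 48 (14.6%, against 18.8%), TGTGGT in 7 (14.6%, against 15.9%) and TATAAA in 8 (16.7%, against 14.3%). TGACGTCA, TGAGTCA and GGGACTTTC were in 0 of 48, against 1.77%, 5.16% and 0.337% of all genes. The bases upstream of the members were a median of 57.4% G or C, against 52.4% for all genes, and no test was made of these shares. The 27025 genes were not limited to the panel or to genes counted in these cells. The shares therefore do not compare the members with the other genes tested. All 63 genes were matched to a RefSeq symbol, 4 of them through an older name, and they lay on 20 chromosomes with at most 6 on one.

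Across the group, the median difference between stimulated and resting cells was -1.01 in c-Kit KO cells, with a range from -0.60 to -1.95, and -1.11 in Mettl3 KO cells, from -0.62 to -2.69. The medians over all 545 genes were -0.08 and 0.04. A halving or more, a log2 difference of -1 or below, was met by 33 genes in c-Kit KO cells, by 41 in Mettl3 KO cells and by 28 in both. All 3 stimulated libraries lay below all 3 resting ones for 38 of the 63 genes in c-Kit KO cells, where 15.4% of all genes tested did so, and for 50 in Mettl3 KO cells, where the share of all genes was 17.6%. The rule used these same counts, so the shares are given only beside each other. For 32 genes the groups did not overlap in either genotype, as held for 10.1% of all genes tested. Of the 63, 50 had at least 20 counts in all 12 libraries, and 25 had a mean under 100 counts.

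**Figure D1:**
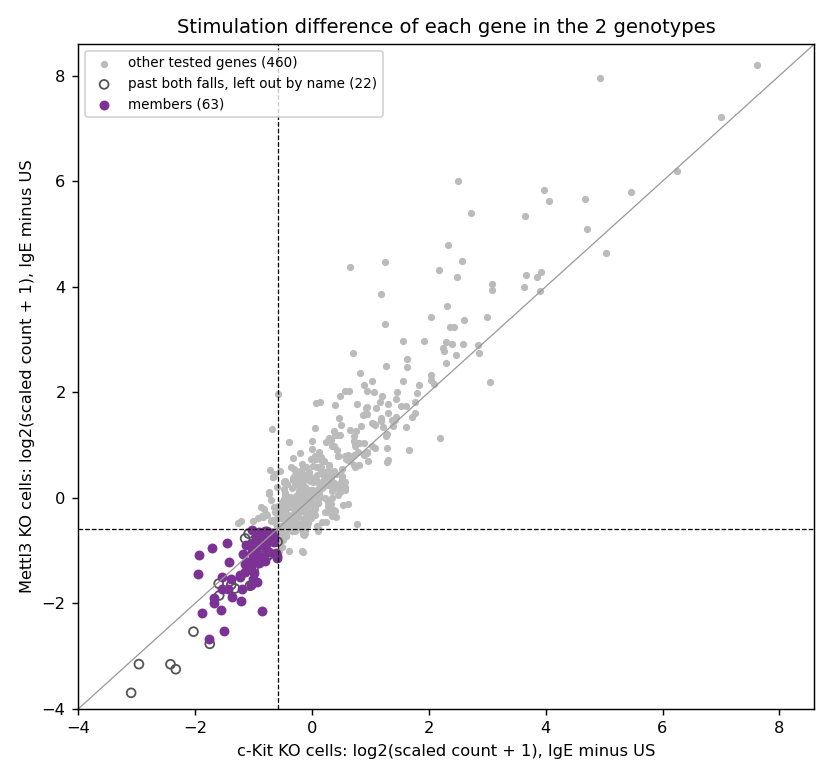
Difference between stimulated and resting cells, as log2(scaled count + 1), in c-Kit KO cells (horizontal axis) and Mettl3 KO cells (vertical axis) for the 545 genes tested, 1 point each. The 63 genes described here (filled) fill the lower left beyond both dashed thresholds, beside 22 genes left out by name (rings), and the solid line marks equal differences.

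Among receptor and signalling genes, Ms4a2 had the largest fall shared by both genotypes. Its scaled counts were 9771, 8086 and 7018 in resting c-Kit KO libraries 1, 2 and 3 and 3419, 2208 and 1441 in the stimulated ones. In Mettl3 KO cells they were 11319.5, 9536 and 7172 at rest and 2290.0, 2216 and 1632 after stimulation. The groups did not overlap in either genotype, and the mean log2 differences corresponded to counts 3.71-fold and 4.54-fold lower. Pik3cg, the γ isoform of phosphoinositide 3-kinase, which amplifies signals in mast cells, went from a mean of 558 ± 75.7 to 268 ± 27.1 (SD, n = 3) in c-Kit KO cells and from 638 ± 130.5 to 254 ± 36.2 in Mettl3 KO cells, again without overlap. Tyrobp, the DAP12 adaptor of activating receptors, was 1.75-fold and 2.31-fold lower, with resting values of 3825 to 7049.9 and stimulated values of 1691 to 3696 over the 2 genotypes. All 3 genes of this role, which the rule chose by their fall, had non-overlapping libraries in both genotypes, as held for 10.1% of all genes tested.

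The 6 genes of the cell cycle and DNA maintenance were lower by a median of -1.18 and -1.65. Top2a, which untangles replicated chromosomes, had 623, 115 and 661 scaled counts in resting and 271, 37.3 and 116 in stimulated c-Kit KO libraries. In Mettl3 KO cells it had 357, 409.9 and 695 at rest and 73.0, 39.4 and 127 after stimulation, a difference of 6.44-fold against 3.40-fold in c-Kit KO cells. The resting c-Kit KO library 2 stood apart, with a value under that of the stimulated library 1, so that the c-Kit KO groups overlapped. Kif20a, a kinesin of the dividing spindle, showed the same library: 158, 43.6 and 179 at rest and 80.5, 30.3 and 38.1 after stimulation in c-Kit KO cells, against 106, 126 and 171 and then 27.9, 25.8 and 49.7 in Mettl3 KO cells. Ndc80, a kinetochore protein, and Ttk, the spindle checkpoint kinase, were 1.95- and 1.52-fold lower in c-Kit KO cells and 2.00- and 2.22-fold lower in Mettl3 KO cells. All 6 were lowest in library 2 among the resting c-Kit KO libraries. None overlapped in Mettl3 KO cells, and 4 of the 6 overlapped in c-Kit KO cells. Among all genes tested, stimulated libraries lay wholly below resting ones for 17.6% and 15.4%, and the rule chose these 6 by the same fall.

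Granule and lysosome genes included Cpa3, whose barcodes alone made up 22.7% to 36.4% of the endogenous counts of resting libraries and 6.96% to 22.2% of those of stimulated ones. Its scaled counts were 218961, 219889 and 190726 in resting and 92230.2, 140233 and 87129.5 in stimulated c-Kit KO cells. In Mettl3 KO cells they were 142070.0, 213962 and 229736, and then 46249.9, 82646 and 74671. Neither genotype's groups overlapped, and the mean log2 differences corresponded to 2.01-fold and 2.90-fold lower counts. Together the 63 genes took 36.2% to 46.4% of endogenous counts at rest and 11.8% to 27.1% after stimulation. Without Cpa3 these ranges were 8.52% to 13.5% and 4.24% to 8.34%. Rab3d, a GTPase of secretory granules, was 2.07-fold and 3.13-fold lower. The lysosomal enzymes Lipa (acid lipase), Man2b1 (α-mannosidase) and Ctsd (cathepsin D) were 1.98-, 1.92- and 1.74-fold lower in c-Kit KO cells and 2.70-, 2.27- and 1.92-fold lower in Mettl3 KO cells. Grn, the lysosomal protein progranulin, and Aoah, which deacylates bacterial lipids, were 1.95- and 2.00-fold lower in c-Kit KO cells and 1.70- and 1.91-fold lower in Mettl3 KO cells. Ctsg, the granule protease cathepsin G, varied widely between libraries, with 1086, 163 and 989 at rest and 777, 149 and 367 after stimulation in c-Kit KO cells. In Mettl3 KO cells it had 485, 192 and 933, and then 339, 233 and 269. Library 2 was the lowest of every group, it was higher after stimulation than before it in Mettl3 KO cells, and the groups overlapped in both genotypes.

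Of the leukotriene enzymes, Alox5 (5-lipoxygenase) had 10406, 6838 and 11033 scaled counts at rest and 7789, 3973 and 4273 after stimulation in c-Kit KO cells. The Mettl3 KO libraries had 11783, 8435 and 10382 and then 4162, 4514 and 5417, without overlap, while the c-Kit KO groups overlapped. Its activating protein, Alox5ap, was 1.58-fold and 1.78-fold lower, and its groups overlapped in both genotypes. Hpgds, which makes prostaglandin D2, went from a mean of 476 ± 159 to 292 ± 191 (SD, n = 3) in c-Kit KO cells and from 494 ± 173 to 205 ± 66.5 in Mettl3 KO cells, with overlap in the first alone. Cbr1, a carbonyl reductase that acts on prostaglandins, was 1.95-fold and 1.78-fold lower. The leukotriene B4 receptors Ltb4r1 and Ltb4r2 and the receptor for platelet-activating factor, Ptafr, were 1.67-, 2.05- and 1.53-fold lower in c-Kit KO cells and 1.68-, 1.54- and 2.08-fold lower in Mettl3 KO cells, all at mean counts under 100.

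Among regulators of transcription and chromatin, Id3, an inhibitor of helix-loop-helix factors, had the largest fall shared by both genotypes. It had 290.4, 47.0 and 151 scaled counts in resting and 108, 24.2 and 29.3 in stimulated c-Kit KO libraries, with library 2 again low at rest. Mettl3 KO values were 108, 60.2 and 147, and then 24.3, 23.4 and 18.2. These stimulated values lay near the negative controls, which averaged 17.75, 16.75 and 22.75 unscaled counts in the same libraries. The c-Kit KO groups of Id3 overlapped. Nfatc2, a calcium-regulated activator of cytokine genes, had 238, 224 and 224 at rest and 150.5, 74.6 and 79.1 after stimulation in c-Kit KO cells. Its Mettl3 KO values were 348, 319 and 218 and then 77.5, 145 and 91.1, and neither genotype overlapped. Hdac5, a class II histone deacetylase, was 3.84-fold lower in c-Kit KO cells and 2.13-fold lower in Mettl3 KO cells. Erg, an ETS factor of blood stem and progenitor cells, was 2.93-fold and 3.34-fold lower, and Smad1, a transducer of BMP signals, 2.18-fold and 1.86-fold. Hmgb1, an abundant chromatin protein, went from a mean of 748 ± 127 to 368 ± 135 (SD, n = 3) and, in Mettl3 KO cells, from 725 ± 114 to 296 ± 41.2. The histone genes Hist2h2aa1 and Hist1h1c were 1.67- and 1.56-fold lower in c-Kit KO cells and 2.04- and 1.67-fold lower in Mettl3 KO cells. Probes of the histone family may share targets with near-identical copies, so these values are uncertain as to the gene.

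Growth and cytokine signalling held 4 genes. Pim2, a kinase induced by cytokine receptors that favours survival, had resting values of 766, 747 and 685 in c-Kit KO cells and 564, 534 and 642 in Mettl3 KO cells. After stimulation it had 255, 162 and 160.4 and, in Mettl3 KO cells, 241, 249.8 and 161, which is 3.88-fold and 2.71-fold lower. Socs1, a feedback inhibitor of JAK and STAT signals, was 1.79-fold and 1.87-fold lower without overlap. Eif4ebp2, a repressor of translation initiation, was 2.00-fold and 2.05-fold lower without overlap, and Sesn1, a p53-induced regulator of growth, was 1.76-fold and 1.55-fold lower.

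The cytoskeletal and GTPase genes were led by Cnn2, the actin-binding calponin 2. It had 437, 164 and 309 scaled counts at rest and 131, 61.5 and 80.6 after stimulation in c-Kit KO cells. For Mettl3 KO cells the counts were 342, 252 and 282 and then 69.4, 67.7 and 80.3, which is 3.97-fold lower and without overlap. Sptbn1 (β-spectrin), Arhgef6 (a Rac exchange factor), Rgl1 (a Ral exchange factor) and Tuba1a (α-tubulin) were 2.28-, 2.05-, 2.75- and 1.62-fold lower in c-Kit KO cells and 2.08-, 2.04-, 1.81- and 1.74-fold lower in Mettl3 KO cells.

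Among surface and secreted proteins, Ly6c1, a myeloid surface antigen, had 6570.4, 5959.9 and 4595 scaled counts in resting and 2732, 2067 and 1363 in stimulated c-Kit KO cells. Its Mettl3 KO values were 5846, 8206 and 4633 and then 692, 1609 and 1027, so that its fall was 5.79-fold there and 2.86-fold in c-Kit KO cells. Selplg, the selectin ligand PSGL-1, had 914, 738 and 1131 and then 432, 296 and 294 in c-Kit KO cells. The corresponding Mettl3 KO values were 1116, 1455 and 950.1 and then 221, 567 and 334. Tspan8, a tetraspanin, had 321, 155 and 157 at rest and 135, 41.4 and 112 after stimulation in c-Kit KO cells. Counts in Mettl3 KO libraries were 295, 158 and 174 and then 46.8, 34.5 and 134, with library 3 the highest of the stimulated ones. None of these 3 genes overlapped in either genotype, as held for 10.1% of all genes tested. Both Angpt1, a ligand, and Tek, its receptor TIE2, were in the group, at 1.81- and 1.93-fold lower in c-Kit KO cells and 4.41- and 3.04-fold lower in Mettl3 KO cells. Adgre5 (the adhesion receptor CD97) was 3.29-fold and 1.95-fold lower, Amica1 (the junctional adhesion molecule JAML) 2.63-fold and 2.91-fold, and Icosl (the ICOS ligand) 2.01-fold and 2.14-fold. Plau, the urokinase plasminogen activator, was 1.78-fold and 1.77-fold lower. Kitl, the ligand of the Kit receptor, was 1.51-fold and 2.14-fold lower.

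The 6 genes of innate sensing, antigen processing and cell death included Tmem173, which encodes STING, the adaptor of cytosolic DNA sensing. It had 137, 132 and 118 scaled counts in resting and 42.4, 49.4 and 30.0 in stimulated c-Kit KO cells. Mettl3 KO libraries gave 157, 203 and 110.2 and then 33.3, 60.3 and 32.3, without overlap in either genotype. Usp18, which removes ISG15 from proteins, was 2.34-fold and 2.77-fold lower. Tap2, a peptide transporter of antigen presentation, Birc3, an inhibitor of apoptosis, and Bid, a BH3-only protein, were 1.85-, 1.63- and 1.71-fold lower in c-Kit KO cells and 1.71-, 1.64- and 1.81-fold lower in Mettl3 KO cells. Of the remaining 6 genes, the oxidase Nox4, Krba1, the thioredoxin-like Txndc16, the thioesterase Acot11, Mob3c and Lst1, the differences ran from -0.90 to -1.54 in c-Kit KO cells and from -0.66 to -1.51 in Mettl3 KO cells.

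**Figure D2:**
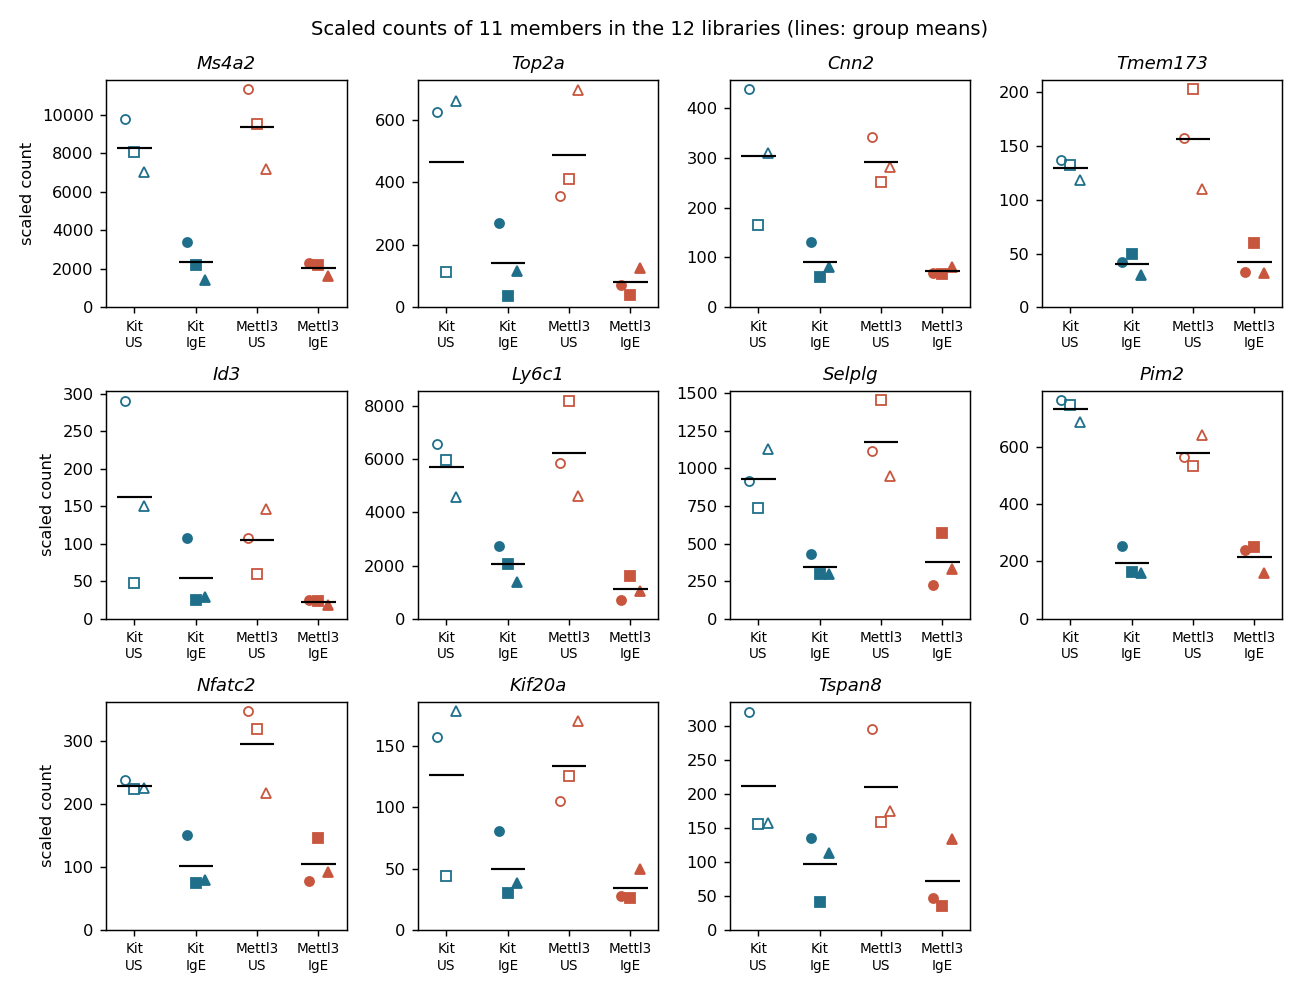
Scaled counts (vertical axes, each from 0) of 11 of the 12 genes with the largest falls shared by both genotypes among those with a mean of at least 100 at rest, in resting (open) and stimulated (filled) libraries of c-Kit KO (blue) and Mettl3 KO (red) cells. Circles, squares and triangles are libraries 1, 2 and 3 and lines are group means; the square of resting c-Kit KO cells lies far below the others for Top2a, Kif20a and Id3.

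The median fall varied more among the same-numbered pairs of libraries than between genotypes, whose medians were -1.01 in c-Kit KO and -1.11 in Mettl3 KO cells. Within c-Kit KO cells the median difference of the 63 genes was -0.87 between libraries 1, -0.98 between libraries 2 and -1.37 between libraries 3. Within Mettl3 KO cells the order was the opposite, at -1.40, -1.16 and -0.93. Averaged over libraries, 43 genes had the larger fall in Mettl3 KO cells and 20 in c-Kit KO cells, with a median difference of -0.14. In libraries 1, 56 of the 63 had the larger fall in Mettl3 KO cells, against 41 in libraries 2 and 10 in libraries 3. These counts come from the falls that chose the genes, with no share of all genes beside them, so they only describe the group. The study's supplement numbers the stimulated Mettl3 KO library labelled 3 differently, so the pairing of Mettl3 KO libraries 3 is in doubt. The stimulated c-Kit KO library 1 was the lowest of its group for only 2 of the 63 genes, and its members lay a median of 0.47 log2 above the group mean. Resting c-Kit KO library 2, low in cell cycle genes, changed the count little: without it 64 genes met the rule, the median in c-Kit KO cells was -1.13, and 53 of the 63 had no overlap there, where 23.3% of all genes tested did so.

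**Figure D3:**
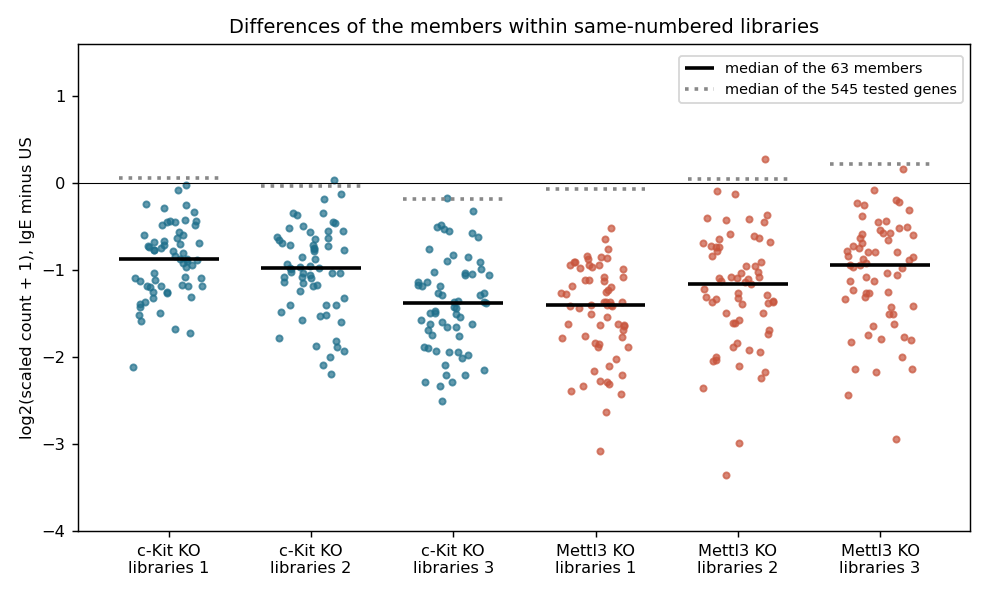
Difference of each of the 63 genes, as log2(scaled count + 1) of the stimulated minus the resting library of the same number (vertical axis), in the 3 pairs of c-Kit KO and the 3 pairs of Mettl3 KO libraries. Solid lines are medians of the 63 genes, from -0.87 to -1.40, and dotted lines are medians of all 545 tested genes, from -0.18 to 0.22.

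Other genes of the same pathways were counted with edgeR's quasi-likelihood test over all 545 genes, at an adjusted p under 0.05. By that test 12.1% of all genes rose and 6.79% fell in c-Kit KO cells, and 22.0% rose and 10.6% fell in Mettl3 KO cells. Once replicate number entered the fit as a block, 67 genes fell in c-Kit KO cells in place of 37, and 82 fell in Mettl3 KO cells in place of 58. These gene lists were written with results of these data known, and the counts below leave out the 63 genes, which could only count as lower. Leaving them out removes genes that fell in both genotypes, so a low count of falls among the rest follows partly from the rule. The shares of all genes given above include the 63 and are no background for these counts. Of the 6 other genes of the cell cycle and DNA maintenance, 1 fell in c-Kit KO cells (3 with the block), 3 fell in Mettl3 KO cells with or without it, and none rose. Of these 6, 4 passed both falls of the rule and were left out only by name, so their falls are no evidence from outside it. They were Birc5, Cdc20, 2810417H13Rik and Ccnb2 (cyclin B2), the last at -2.30 ± 0.70 (SE) and -3.39 ± 0.75. The replication helicase subunit Mcm5 had -0.72 ± 0.50 and -0.69 ± 0.50, and the repair gene Ercc1 0.20 ± 0.27 and 0.35 ± 0.27, and neither passed.

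Of the 6 other measured arachidonic acid enzymes and lipid mediator receptors, none fell, 1 rose in Mettl3 KO cells and 0 rose in c-Kit KO cells (1 with the block). The gene that rose in Mettl3 KO cells was Ptgs2 (cyclooxygenase 2), with 4.62 ± 0.91 (SE) there and 2.52 ± 0.88 in c-Kit KO cells. Lta4h, which makes leukotriene B4, had -0.57 ± 0.29 and -0.20 ± 0.29 and did not pass. Of the 16 other genes of the IgE receptor and its proximal signals, 2 rose and 0 fell in c-Kit KO cells (1 fell with the block), and 4 rose and 1 fell in Mettl3 KO cells. Fcer1a, the α chain, which passed both falls and was left out only by name, had -0.99 ± 0.43 and -1.63 ± 0.44. The kinase gene Fyn had 2.58 ± 0.38 and 3.44 ± 0.39. Among the 7 other measured granule and lysosome proteins, 0 passed in c-Kit KO cells, and in Mettl3 KO cells 1 rose and 0 fell (1 with the block). The other mast cell proteases in that list, Cma1 and Tpsb2, had -0.44 ± 0.33 and -0.31 ± 0.38 in c-Kit KO cells and -0.74 ± 0.34 and -0.33 ± 0.38 in Mettl3 KO cells.

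Some relatives of genes in the group went the other way. Nfatc1 rose in both genotypes, by 0.93 ± 0.29 (SE) and 1.80 ± 0.29, while Nfatc2 was lower in both. Id2 rose in c-Kit KO cells, by 1.35 ± 0.33, and had 0.74 ± 0.32 in Mettl3 KO cells, while Id3 was lower in both. The ETS family gene Ets1 rose by 2.23 ± 0.31 and 2.88 ± 0.31, while Erg was lower. Of the 26 other transcription factors and corepressors, 3 rose and 0 fell in c-Kit KO cells (4 and 1 with the block), and 6 rose and 0 fell in Mettl3 KO cells (7 and 0 with the block). The actin-severing gelsolin gene Gsn rose by 1.43 ± 0.24 and 1.47 ± 0.24, while Cnn2 was lower. Socs3 had 0.02 ± 0.40 and 0.74 ± 0.39, and did not pass. Of the 5 other p53-linked and antiproliferative genes, 3 rose and 0 fell in each genotype, with or without the block, among them Cdkn1a, the cell cycle inhibitor p21, at 1.00 ± 0.27 and 1.70 ± 0.28.

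Markers of the labelled cell type were present throughout. All 10 mast cell markers had at least 20 counts in every library. Their summed scaled counts were 352505 to 501537 over resting and 164027 to 303411 over stimulated libraries. The largest part of that sum was Cpa3, a gene chosen for its fall. Its means went from 209858 to 106531 in c-Kit KO cells and from 195256 to 67856 in Mettl3 KO cells. The sum is therefore no measure of the markers in general, of which 3 of the 10 were in the group. Of the 7 others, Hdc, the enzyme that makes histamine, rose by 2.22 ± 0.67 (SE) and 2.27 ± 0.67 by edgeR, from means of 387 to 1805 and of 377 to 1824 scaled counts, and Fcer1a fell in Mettl3 KO cells; with the block, 1 of the 7 fell in c-Kit KO cells and 3 in Mettl3 KO cells. Markers of macrophages (9 genes), neutrophils (6 genes) and eosinophils (5 genes) summed to 129 to 204, 50.3 to 88.3 and 56.4 to 175 scaled counts per library. At most 5 of the 9 macrophage, 2 of the 6 neutrophil and 2 of the 5 eosinophil markers reached 20 counts in a library, and Ly6g, Camp, Csf3r and Epx reached at most 21.6 scaled counts. Of these 20 markers, 8 passed the count filter, and 1 of the 8, Siglecf, in the eosinophil list, passed the test, with a rise of 1.58 ± 0.48 (SE) and 2.18 ± 0.47 by edgeR. In bulk RNA, fewer cells of a kind and less RNA per cell cannot be told apart.

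The genotypes were then compared over the same 63 genes. The rule did not use the average of both states, although it comes from the same libraries. The resting and stimulated contrasts are made of group means that entered the rule, so their shares are given only beside each other. By edgeR's quasi-likelihood test, 0 of the 63 genes differed between Mettl3 KO and c-Kit KO cells in the average, where 0.183% of all genes tested did so, in resting cells (0.00%) or in stimulated cells (0.917%). At an unadjusted p under 0.05 there were 3 of 63 in the average (4.76%, against 10.6% of all genes), 0 in resting cells (against 1.28%) and 3 in stimulated cells (4.76%, against 14.5%). The smallest adjusted p values were 0.403, 0.997 and 0.212. With DESeq2, 1 of the 63, Ly6c1, passed in stimulated cells, where 23 of all genes tested did so.

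The estimates were centred near 0. In the average the median difference, Mettl3 KO minus c-Kit KO, was -0.04, against 0.15 over all genes, with a range from -0.95 to 0.79 and a median SE of 0.26. In resting cells the median was 0.06, against 0.08 over all genes, and 53 of the 63 lay within 0.5 log2 of 0. In stimulated cells the median was -0.16, against 0.20 over all genes, and 47 lay within 0.5. The stimulated median was -0.54 for libraries 1, 0.01 for libraries 2 and 0.34 for libraries 3, and without libraries 1 the fitted median became 0.13, so its sign rested on those libraries. The average median likewise became 0.12 without libraries 1. With TMM in place of housekeeping scaling, the medians of all genes moved from 0.20 to 0.02 and those of the 63 from -0.16 to -0.31 in stimulated cells. The SE of a single gene in resting cells, a median of 0.36, limits what 3 libraries a group can show, and small differences were not detectable.

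**Figure D4:**
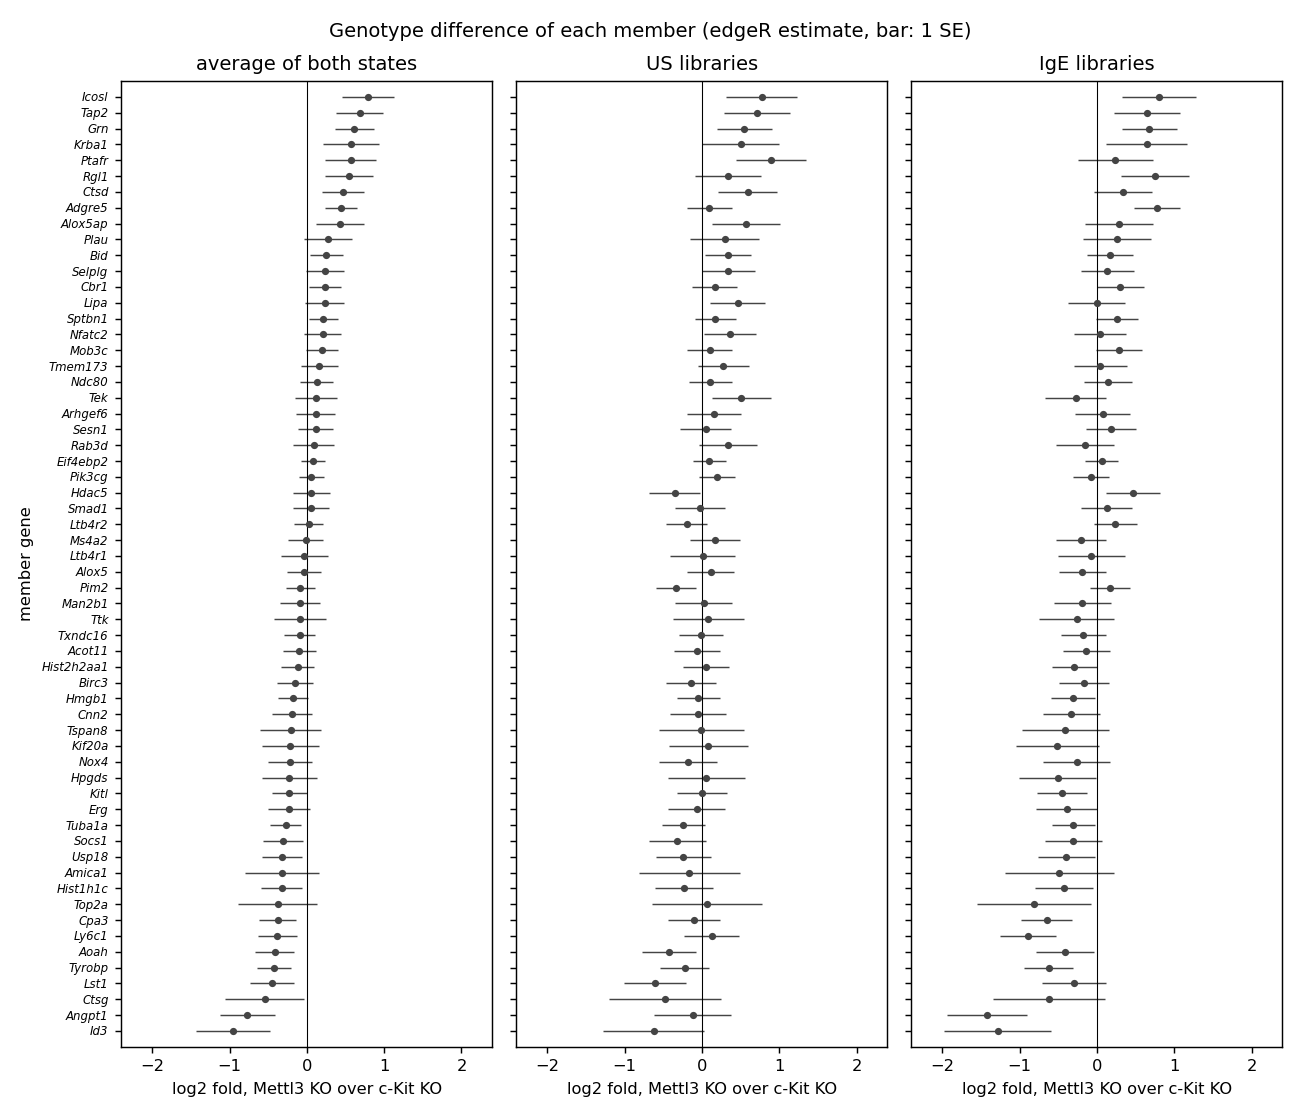
Genotype difference of 60 of the 63 genes, as the edgeR log2 fold of Mettl3 KO over c-Kit KO cells (horizontal axes, bars 1 SE), averaged over both states, in resting (US) and in stimulated (IgE) libraries. Genes are ordered by the average, from Id3 at -0.95 to Icosl at 0.79, and none of the 60 passed an adjusted p of 0.05 in any panel.

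The genes nearest to a difference can be named with their values. In the average, Icosl had 0.79 ± 0.33 (SE, adjusted p = 0.427 by edgeR), Tap2 0.68 ± 0.30 (adjusted p = 0.447 by edgeR) and Grn 0.61 ± 0.25 (adjusted p = 0.403 by edgeR), each higher in Mettl3 KO cells. Icosl had 39.7, 33.3 and 41.3 scaled counts in resting c-Kit KO and 65.9, 82.5 and 48.6 in resting Mettl3 KO libraries, which did not overlap. Of stimulated libraries, Angpt1 had 409, 154 and 122 in c-Kit KO and 105, 32.0 and 117 in Mettl3 KO cells, a difference of -1.42 ± 0.51 (SE, adjusted p = 0.212 by edgeR). These did not overlap, but libraries 3 differed by only -0.07, and without 1 replicate the estimate ran from -2.02 to -0.88. Ly6c1 had -0.89 ± 0.36 (SE, adjusted p = 0.276 by edgeR), which was -0.38 without libraries 1, and -1.10 with an adjusted p of 0.0169 in DESeq2. Adgre5 was higher in stimulated Mettl3 KO cells, at 0.78 ± 0.30 (SE, adjusted p = 0.233 by edgeR). Its scaled counts there were 557, 583 and 442, against 402, 255 and 265 in stimulated c-Kit KO cells, without overlap. Of all the genes described here, 3 had no overlap between genotypes in resting libraries and 7 had none in stimulated libraries. No share of all genes tested is given beside these counts, so nothing is read from the lack of overlap.

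The border of the group was not a gap in the data. Just inside it were Ptafr at -0.61 and -1.06 in c-Kit KO and Mettl3 KO cells, Ttk at -0.60 and -1.15 and Kitl at -0.60 and -1.10. Just outside it were the apoptosis inhibitor Birc2, at -0.60 and -0.57, the fatty acid elongase Elovl6, at -0.52 and -0.54, and the inflammatory caspase Casp1, at -0.51 and -0.58.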

How the data were processed

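RNA of 12 libraries was counted on the nCounter Myeloid Innate Immunity Panel (NanoString), and the authors deposited raw counts of 768 probes per library, without normalization, in 1 table in which every value column matched a sample. The paper analysed them with nSolver; here the deposited counts were analysed anew, and groups were taken from the sample labels. Probe classes (734 endogenous, 20 housekeeping, 8 negative, 6 positive) were read from the probe names and the order of the table. Counts were divided by the geometric mean of the housekeeping probes relative to the average library. A gene was kept where 3 or more libraries had 20 or more counts, and differences were means of log2(scaled count + 1). Genotypes were compared with the quasi-likelihood test of edgeR 4.0.16 (R 4.3.3) over all 545 genes, with the housekeeping factors in the library sizes, all 4 groups in 1 fit and Benjamini-Hochberg adjustment. DESeq2 1.42.0 and limma 3.58.1 were alternatives, as were other scalings, filters, pseudocounts, background handling and leaving out each replicate. Leaving out resting c-Kit KO library 2 was added after seeing the data. Tested on counts drawn with known changes for the average genotype comparison of 545 genes, the fit recovered 176 of 200 changed genes with 3 false calls. It recovered 96 of 97 genes changed by 2 log2 and 80 of 103 changed by 1 log2, and no smaller changes were drawn. In that comparison the genes described here had estimates from -0.95 to 0.79, so recovery at such sizes was not tested. The draws changed 200 of 545 genes, which makes the adjusted p easier to pass. They held no stimulation effect and no deviations shared by same-numbered libraries, so recovery in the real data may be lower.

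The genes and the lists were chosen with earlier results of these data known. The genes of the group are named except for 3 that are counted but not reported here; values in every library were given for 11 of the 12 with the largest fall shared by both genotypes among those with a mean of at least 100 scaled counts in both resting groups, and for others on which a result turned. Members with an unadjusted p under 0.05 between genotypes and the 3 genes on each side of the border were also named, and genes outside the group only as members of a list or marker set. No 2 libraries held the same counts, and at least 734 probes differed between any pair. The paper calls the replicates of this experiment biologically independent. Deviations from the group means correlated for all 18 pairs of libraries with the same number (mean r = 0.33 over genes, lowest 0.14), so the numbers were taken to pair the libraries, although the study's supplement gives the stimulated Mettl3 KO library labelled 3 another number; a fit with the number as a block was an alternative. Counts of barcodes carry counting error, and the depth of 504238 to 737910 endogenous counts leaves genes under about 20 counts near the negative controls.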

Additional observations from a re-analysis of the deposited data

How the results depend on the processing

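Of 247 values recomputed under alternatives, 27 summary values moved. The genotype differences named for single genes, none of which passed by edgeR, kept their sign. The median genotype difference of the 63 genes, which has no test, did not. Without 1 replicate it ran from -0.10 to 0.12 in the average and from -0.32 to 0.13 in stimulated cells, turning positive without replicate 1. The average median was also 0.0028 with limma, and the resting median, 0.06, was -0.03 with TMM and -0.0090 without resting c-Kit KO library 2. The rule kept 53 to 64 genes under other scalings, filters and pseudocounts or without resting c-Kit KO library 2 (chosen after seeing the data), and 39 genes in all 11 settings compared. Subtracting the negative control mean gave 91 genes, among them all 63, with medians of -1.35 and -1.54, because subtraction enlarges the differences of low counts. Leaving out 1 replicate gave 58 to 67 genes. Counting same-numbered pairs only, 62 genes were lower in all 3 pairs in c-Kit KO cells (32.3% of all genes tested) and 61 in Mettl3 KO cells (27.9%). For the genotype average, DESeq2 called 11 of all genes and limma 0, leaving out 1 replicate gave 0 to 19 and leaving out resting c-Kit KO library 2 gave 0; without replicate 3 the count was 19. In stimulated cells DESeq2 called 23, leaving out 1 replicate gave 0 to 33, and leaving out resting c-Kit KO library 2 gave 1. Of the 63 genes, 0 were called in any of these except Ly6c1, the 1 gene called by DESeq2 in stimulated cells (-1.10, adjusted p = 0.0169; over its alternatives 0.0169 to 0.994). With the replicate block, 0 of the 63 were called between genotypes. The share of all genes called with the block is not given here, so nothing is read from that count. For stimulation, the block called 67 genes lower in c-Kit KO cells, and DESeq2 94 in Mettl3 KO cells. Leaving out 1 replicate called 24 to 37 genes higher and 7 to 12 lower in c-Kit KO cells, and 58 to 100 higher and 13 to 44 lower in Mettl3 KO cells. Leaving out resting c-Kit KO library 2 called 48 higher and 37 lower in c-Kit KO cells, and 119 higher and 57 lower in Mettl3 KO cells. The cause of these changes was not tested; fewer libraries give less precision. Genes under about 20 counts lie near the negative controls, so their falls are understated.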
